A study of Homo sapiens with 8 samples.

Results

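The libraries described here are the input RNA libraries of a polysome profiling study of fibrillarin in leukaemia cells, 4 of the 8 libraries of the series. Those whose titles end in 2 (CT2 and U2) were set against those whose titles end in 1 (CT1 and U1), with the CT or U of the title as a block. The split was prompted by the counts of FBL, the fibrillarin gene, which were low in both libraries numbered 2, so the groups were chosen by measured FBL counts although the title numbers fix their members. FBL is therefore described without a test, and the p-values of all other genes are conditional on a split that an outcome chose. The labels do not say what the title number means.

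All libraries come from OCI-AML3, an established human acute myeloid leukaemia line that is known to carry a mutated NPM1. The libraries numbered 2 are CT2, with the genotype label WT, and U2, with the label FBL knockdown. The libraries numbered 1 are CT1, also labelled WT, and U1, also labelled FBL knockdown, so each number holds 1 library of each label. Per the labels' protocols, cells were infected with a control hairpin (shCT) or a hairpin against FBL (shFBL), and all received cycloheximide (100 µg/mL, 15 min), which stalls elongating ribosomes. Input RNA is from 100 µL of cleared lysate taken before the sucrose gradient. Whether each library had its own infection or culture is not stated in the labels. The p-values therefore reflect library-to-library spread, part of which may be technical.

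Fibrillarin is the enzyme of the box C/D particles of the nucleolus, in which guide RNAs direct 2'-O-methylation of ribosomal RNA. It works there with NOP56, NOP58 and SNU13, and part of these particles is needed for cleavage of the ribosomal RNA precursor. Disturbed ribosome assembly is known to stabilise p53 through unassembled ribosomal proteins that bind MDM2, and p53 then switches on genes for cell cycle arrest, DNA repair, metabolism and death.

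Gene counts came to 33.2 M (mega-counts) in CT2 and 43.1 M in U2, against 36.6 M in CT1 and 30.8 M in U1, and 18323 to 18440 genes had reads. No library stood apart: the 50 most abundant genes took 19.5% to 20.3% of gene counts and mitochondrial mRNAs 3.77% to 4.06%. Of 10 myeloid leukaemia markers, 8 were at 1 CPM (gene counts scaled to a library of 1 mega-count) or more in all 4 libraries, and their summed level was 1550 and 1640 CPM in CT2 and U2, against 1320 and 1490 CPM in CT1 and U1. KIT was at 0 in all but U1. Of 6 lymphoid markers, 1 (NKG7) passed 1 CPM in all libraries and 3 (CD3E, CD3D and MS4A1) were at 0, with sums of 3.57 to 4.03 CPM. Of 8 erythroid and megakaryocyte markers, 1 (EPOR) passed and 4, with PF4 and GP9 among them, were at 0, with sums of 14.5 to 23.1 CPM. Of 6 stromal, endothelial and epithelial markers, 1 (PECAM1) passed and EPCAM was at 0, with sums of 56.7 to 80.6 CPM.

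FBL (chr19:39834458-39846414, GRCh38, minus strand) had 96.8 CPM in CT2 and 92.3 CPM in U2, against 272 CPM in CT1 and 277 CPM in U1. Its level was 64.4% lower in CT2 than in CT1 and 66.6% lower in U2 than in U1, so it followed the title number and not the genotype label: the library labelled WT with number 2 was as low as the knockdown library with number 2, and the library U1, labelled FBL knockdown, was as high as CT1. Whether titles or genotype labels were exchanged, for example between CT2 and U1, cannot be told from the sources used here. If they were, the numbers would stand for the genotypes, and the CT or U block would not hold what its name says. Polysome RNA with the same titles showed the same order, with FBL 67.2% lower in CT2 and 65.9% lower in U2 than in their partners numbered 1. The fitted log2 fold change in input RNA, number 2 over number 1, was -1.54, given as a value only.

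Of FBL's 3 partners in the core of box C/D particles, NOP56 fell and the other two did not pass the test. NOP56, a scaffold of the particle, had 316 CPM in CT2 and 246 CPM in U2, against 396 CPM in CT1 and 351 CPM in U1. CT2 and U2 did not overlap CT1 and U1, and the log2 fold change was -0.42 ± 0.07 (SE; adjusted p = 2.32e-07, edgeR's quasi-likelihood F test with Benjamini-Hochberg adjustment over all genes, as for every adjusted p here unless another fit is named). In polysome RNA NOP56 went the other way in both pairs, with log2 ratios of 0.21 and 0.31. NOP58, its paralog in the particle, had 202 and 163 CPM in CT2 and U2, against 227 and 185 CPM in CT1 and U1, and these values overlapped (log2 -0.18, adjusted p = 0.184). SNU13, which binds the kink-turn of the guide RNA, had 269 and 292 CPM in CT2 and U2, against 292 and 316 CPM in CT1 and U1 (log2 -0.12, adjusted p = 0.427), with U2 just under CT1. None of the 11 assembly factors of these particles passed the threshold with edgeR or DESeq2 (2 at an unadjusted p under 0.05), and none of the 6 box H/ACA proteins did (0 at an unadjusted p under 0.05). Since 5.16% of all tested genes passed, lists this short would hold few calls or none, so these counts do not set them apart. The snoRNAs themselves took 0.0% of gene counts, so the guide RNAs cannot be described from these libraries.

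**Figure D1:**
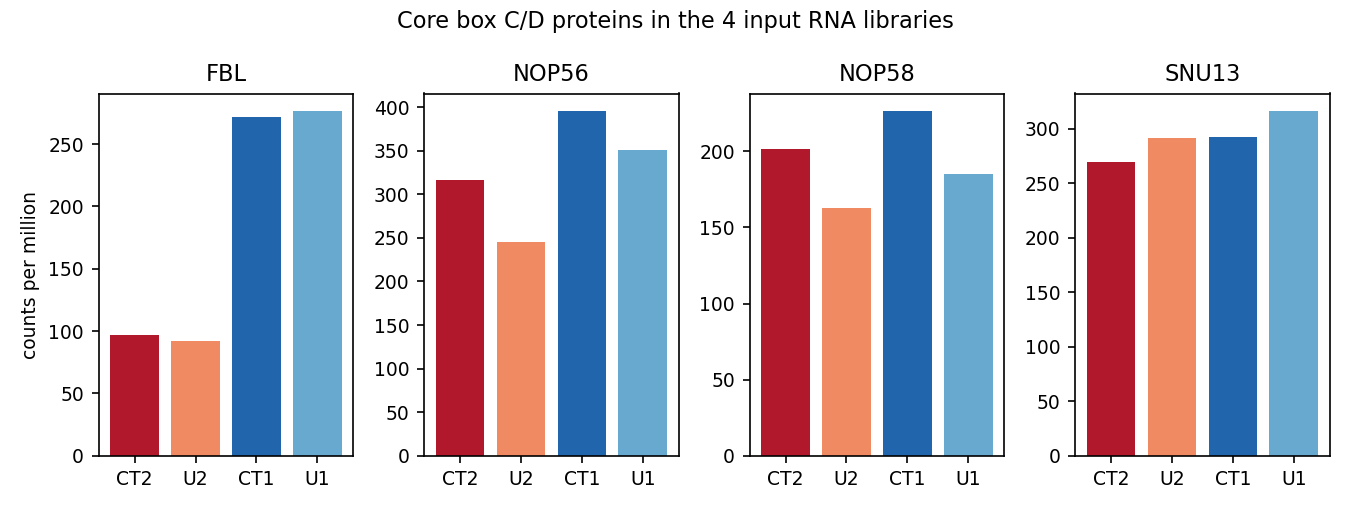
Level of FBL and its 3 core partners in the 4 input RNA libraries, in CPM on a linear axis, 1 bar per library (red CT2 and U2, blue CT1 and U1; no error bar, since each bar is a single library). FBL is at 92.3 to 96.8 CPM in CT2 and U2, against 272 and 277 CPM in CT1 and U1, while NOP58 and SNU13 differ by much less.

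Across the transcriptome the difference was broad and mostly small. Of 15543 genes tested, 802 (5.16%), FBL among them, passed an adjusted p of 0.05: 415 were higher (2.67%) and 387 lower (2.49%) in the libraries numbered 2, and 90 of the 802 differed at least 2-fold, 47 higher and 43 lower. At an unadjusted p of 0.05 there were 2543. The CT pair and the U pair had the same sign in 799 of the 802, where 59.3% of all tested genes did, but each pair enters the fit that makes the call, so this share is no separate evidence. The values of CT2 and U2 did not overlap those of CT1 and U1 in 692 of the 802, against 35.9% of all tested genes, and the call itself favours such genes.

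The number of calls rests on how the spread is estimated. With 4 libraries and a block, 1 residual degree of freedom is left, and edgeR then gave every gene the spread of the trend, so p is too small for a gene that varies more than others of its level. In a fit of all 8 libraries of the series, which lets the spread differ by gene but assumes it alike in input and polysome RNA, 4 of 16503 genes were called (0.0242%). One is FBL, whose counts chose the split and which supports nothing here, and the others are CHI3L1 (adjusted p = 0.0141), FZD4 (adjusted p = 0.0422) and S100A9 (adjusted p = 0.0491). No other gene named below was called in that fit. Without the CT or U block 7 genes were called, and DESeq2 called 329, 172 higher and 157 lower. With offsets for GC content and length the count was 434, and its split moved to 182 higher and 252 lower. The 802 genes all kept their sign in the fit of 8 libraries, which holds the same 4 input libraries. Calls below are those of the 4 input libraries. A count of calls in a list stands against the 5.16% of all tested genes.

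Polysome libraries with the same titles, which enter no fit of the calls, were set beside the input. Per the labels' protocols, gradient and input material were taken from a common supernatant, so libraries of a title may share a lysate and are not new samples. Of 797 called genes with polysome reads in both pairs, 612 (76.8%) differed in the input direction in both polysome pairs, against 36.6% of all tested genes, and 30 went the opposite way in both.

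**Figure D2:**
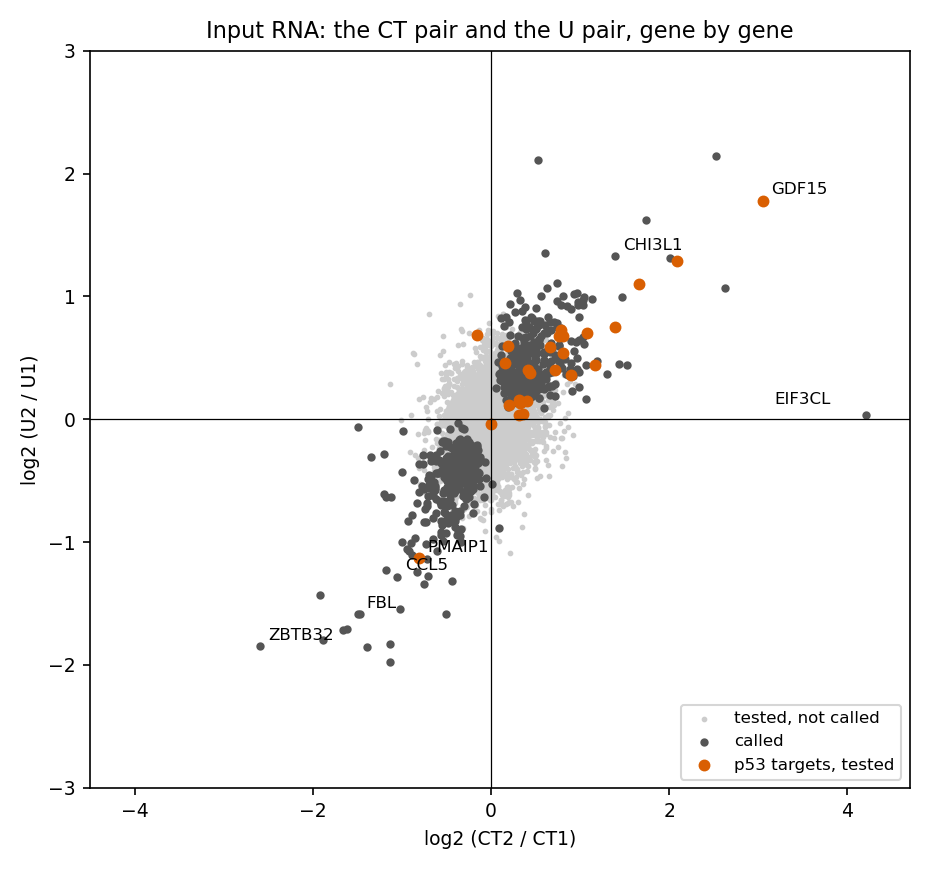
Each point is a gene whose mean in the higher number is 10 CPM or more; the x axis is log2 of CT2 over CT1 and the y axis log2 of U2 over U1 in input RNA. Called genes (dark grey) lie mostly in the quadrants where both pairs agree in sign, p53 targets (orange) lie mostly above 0 in both, and EIF3CL lies at 4.21 in the CT pair and 0.04 in the U pair.

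Most p53 targets that passed the test were higher in the libraries numbered 2. Of 33 tested members of the list (34 listed; KITLG was too low to test), 19 were called higher and 1 lower, and the median log2 fold change was 0.62, against 0.00 over all genes tested. The share called was 60.6%, against 5.16% of all tested genes. In both pairs 29 of the 33 were above 0 and 2 below 0, where 29.7% of all tested genes were above 0 in both.

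GDF15, a secreted stress cytokine, had the largest increase of all genes named here. It had 53.01 CPM in CT2 and 36.3 CPM in U2, against 6.39 CPM in CT1 and 10.6 CPM in U1, without overlap (log2 2.41 ± 0.16 SE, adjusted p = 9.37e-48; chr19:18374731-18389176). FDXR, the mitochondrial reductase that feeds electrons to ferredoxin, had 141 and 106 CPM in CT2 and U2, against 44.3 and 49.4 CPM in CT1 and U1 (log2 1.38 ± 0.09 SE, adjusted p = 2.08e-45). CDKN1A encodes p21, the inhibitor of cyclin-dependent kinases through which p53 halts the cycle. It had 341 and 249 CPM in CT2 and U2, against 130.5 and 148 CPM in CT1 and U1 (log2 1.07 ± 0.08 SE, adjusted p = 3.96e-42). In all 3 genes CT2 was the highest library and U2 the next.

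The other called members, most of them named after their values were seen, fall into several arms of the response. Among genes of arrest and feedback, MDM2, the ubiquitin ligase that degrades p53, had 294 and 229 CPM in CT2 and U2, against 178 and 174 CPM in CT1 and U1 (log2 0.56), and BTG2 (0.67), GADD45A (0.81), ZMAT3 (0.89) and TP53INP1 (1.28) were also higher. Among metabolic and antioxidant genes, TP53I3 (1.70), a quinone oxidoreductase, and the sestrins SESN1 (0.74) and SESN2 (0.72), which restrain mTORC1, were higher. Among DNA repair genes, DDB2 (0.41) and XPC (0.62), which recognise damaged DNA, were higher. Among death genes, BBC3, which encodes PUMA, had 69.8 and 61.5 CPM in CT2 and U2, against 40.4 and 37.1 CPM in CT1 and U1 (log2 0.76), and BAX (0.41), PHLDA3 (0.63), AEN (0.30), TNFRSF10B (0.27) and RPS27L (0.23) were higher. Exons of MDM2, XPC and TNFRSF10B overlap those of another gene with a comparable number of reads, and no source used here gives the strand setting of the counting, so their values may hold reads of that neighbour.

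PMAIP1, which encodes the BH3-only protein NOXA and is also reported as a target of other stress factors, was the member that fell. It had 25.1 and 19.5 CPM in CT2 and U2, against 43.9 and 42.8 CPM in CT1 and U1 (log2 -0.97 ± 0.14 SE, adjusted p = 5.05e-10; chr18:59899948-59904306). Among the 13 members that did not pass, FAS had 9.29 CPM in CT2 and 4.30 CPM in U2, against 3.13 CPM in CT1 and 4.91 CPM in U1, so its pairs went opposite ways. DRAM1 had 21.2 and 22.5 CPM in CT2 and U2, against 21.3 and 23.1 CPM in CT1 and U1.

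The difference in p53 targets was larger in the CT pair than in the U pair. The list's median log2 ratio was 0.77 for CT2 over CT1 and 0.46 for U2 over U1, and 18 of the 19 members called higher had the larger ratio in the CT pair, AEN being the exception. This gap between pairs was not tested. The matching share over all tested or all called genes was not counted, so the 18 do not set these members apart. In polysome RNA the medians were 0.63 for the CT pair and 0.30 for the U pair. The call on the members depends on the fit: DESeq2 called 14 higher and 1 lower, the fit without the block 2, the fit of 8 libraries 0 of 33, and the same fit restricted to genes averaging 10 CPM or more, added after seeing the data, 5 of 26. Leaving 1 input library out of the fit of 8 leaves a single pair in input RNA. The median was then 0.43 without CT1 or CT2 and 0.74 without U1 or U2, which restates the pair medians and is no check of stability.

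Promoters of 27 tested p53 targets were found among RefSeq start sites (GRCh38.p14), and the 250 bases before each start were searched on both strands for the p53 response element, 2 copies of its unit with up to 1 base between them and up to 2 mismatches. A match was found for 3 of the 27, against 0.441% of all 35116 promoters searched. The 27 are genes, matched if any of their starts matched, while the 0.441% counts single promoters, so the shares are in unlike units. Those among the called members are shown, both from the plus strand and both for genes that were higher, with the element in capitals. The first is the start of MDM2 inside the gene at chr12:68808767-68809016, the second that of AEN, a p53-induced nuclease, at chr15:88621090-88621339.
MDM2: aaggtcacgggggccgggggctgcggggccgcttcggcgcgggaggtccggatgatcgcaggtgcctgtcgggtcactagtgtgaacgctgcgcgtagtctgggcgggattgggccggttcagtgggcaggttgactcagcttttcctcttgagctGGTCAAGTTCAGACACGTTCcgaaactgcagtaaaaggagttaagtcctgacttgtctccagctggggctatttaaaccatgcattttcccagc
AEN: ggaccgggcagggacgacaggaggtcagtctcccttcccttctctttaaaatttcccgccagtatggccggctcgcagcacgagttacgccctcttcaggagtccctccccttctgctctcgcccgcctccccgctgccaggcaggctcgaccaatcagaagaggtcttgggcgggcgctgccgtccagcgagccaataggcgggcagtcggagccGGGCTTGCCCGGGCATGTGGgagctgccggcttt
A match is a resemblance in letters and not a measured site.

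**Figure D3:**
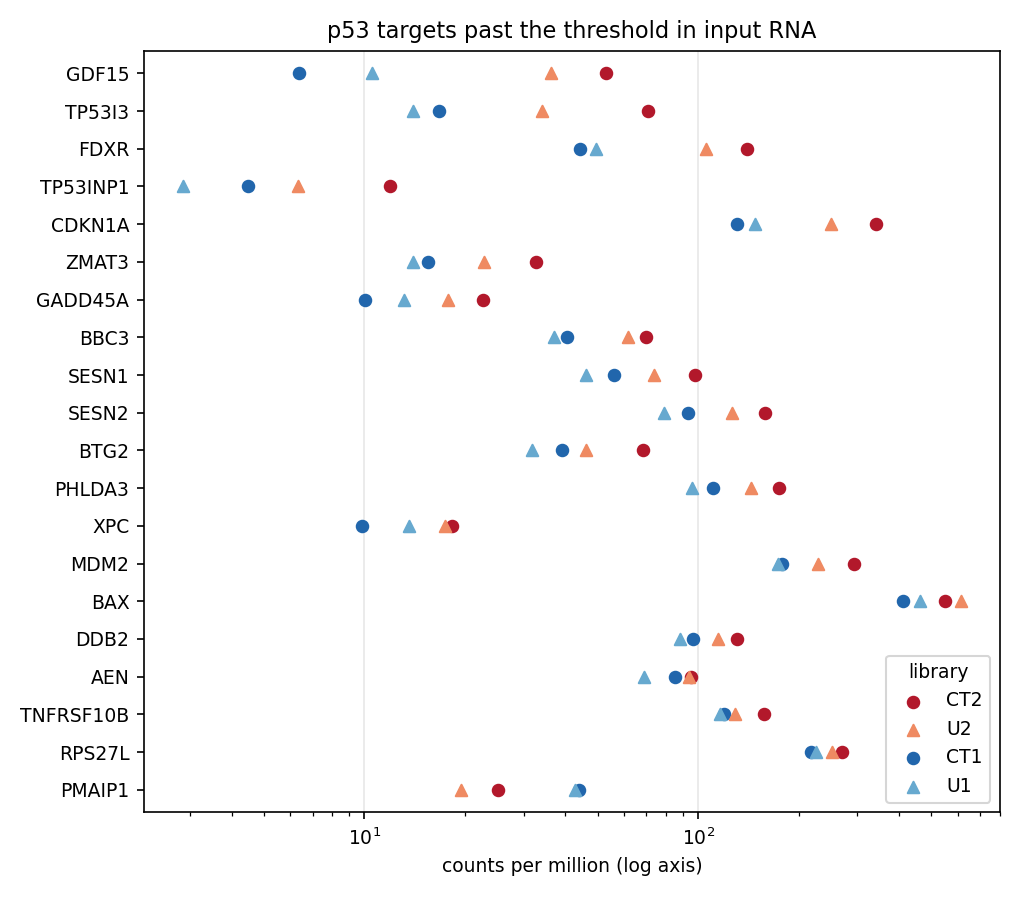
Level of the 20 called p53 targets in each input RNA library, in CPM on a log axis; circles are CT libraries, triangles U libraries, red number 2 and blue number 1. In 19 genes both red points lie right of both blue points, and in PMAIP1 they lie left of them. The genes are shown because they were called, and the call favours such separation, which 35.9% of all tested genes have in either direction.

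Other large increases were found in genes outside that list. CHI3L1, a secreted chitinase-like glycoprotein of myeloid cells, had 377 CPM in CT2 and 758 CPM in U2, against 144 CPM in CT1 and 302 CPM in U1 (log2 1.36 ± 0.07 SE, adjusted p = 9.48e-83; chr1:203178931-203186749). Its log2 ratio was 1.39 in the CT pair and 1.33 in the U pair, and U libraries were above CT libraries within each number. CMBL, a cytosolic hydrolase, had 21.1 and 12.5 CPM in CT2 and U2, against 3.64 and 2.83 CPM in CT1 and U1 (log2 2.35). NECTIN4 (1.87), a cell adhesion protein, VWCE (1.69), CYGB (1.66), which encodes cytoglobin, and CAPS (1.30), a calcium-binding protein, had adjusted p from 5.34e-12 for CYGB to 1.36e-05 for CAPS. CAPS rests mostly on the U pair, with log2 ratios of 0.53 in the CT pair and 2.11 in the U pair, and its polysome U pair was at -0.03. These 6 genes, GDF15, FDXR, TP53I3 and EIF3CL are the 10 largest increases by the rule for naming genes. EIF3CL, a near-identical copy of the translation initiation factor gene EIF3C, had 105 CPM in CT2, but 10.0 CPM in U2, against 5.65 CPM in CT1 and 9.78 CPM in U1. Its fitted log2 of 2.19 rests on CT2 alone, and reads can move between the copies, so it is uncertain although it was called.

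The 10 largest decreases include genes of receptors, their inhibitors and cytokines. FZD4, a Wnt receptor, had 34.1 and 21.8 CPM in CT2 and U2, against 94.3 and 65.4 CPM in CT1 and U1 (log2 -1.53 ± 0.11 SE, adjusted p = 2.15e-38; chr11:86945679-86955391). SOCS3, which shuts off cytokine receptor signalling, had 11.2 and 11.1 CPM in CT2 and U2, against 35.6 and 36.5 CPM in CT1 and U1 (log2 -1.69 ± 0.16 SE, adjusted p = 6.66e-24). ZBTB32, a zinc finger repressor of immune cells, had 2.63 and 5.17 CPM in CT2 and U2, against 16.01 and 18.7 CPM in CT1 and U1 (log2 -2.20). In none of the 3 genes did CT2 and U2 overlap CT1 and U1. KCNN1 (-1.84), a calcium-activated potassium channel, SEPTIN4 (-1.67), IL18RAP (-1.62), a subunit of the interleukin-18 receptor, RIPOR2 (-1.56) and EXT1 (-1.20), which builds heparan sulfate, were also lower. CCL4L2 (-1.29) has near-identical copies, so its reads may be shared with CCL4.

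Cytokine genes that passed the test were lower in the libraries numbered 2. Of 27 tested genes in the list of NF-kappaB targets and inflammatory cytokines, 0 were higher and 6 lower, and their median log2 fold change was -0.12. The share called was 22.2%, against 5.16% of all tested genes. DESeq2 called 3 lower. CCL5, a chemokine for T cells and monocytes, had 683 and 659 CPM in CT2 and U2, against 1424 and 1602 CPM in CT1 and U1 (log2 -1.17 ± 0.06 SE, adjusted p = 3.46e-88; chr17:35871491-35880793), the smallest adjusted p of any gene. CCL3 (-0.74), CCL4 (-1.08), CXCL10 (-0.60), CXCL1 (-0.26) and PTGS2 (-0.96), the inducible cyclooxygenase, were also lower, of which CCL3 and CCL4 have near-identical copies that may share their reads. CXCL10 had 103 CPM in CT2 and 184 CPM in U2, against 149 CPM in CT1 and 293 CPM in U1, so the groups overlap and the difference is seen only within a label. IFNB1, which encodes interferon beta and is among the 10 largest decreases, had 7.59 and 4.89 CPM in CT2 and U2, against 16.7 and 17.4 CPM in CT1 and U1 (log2 -1.48 ± 0.20 SE, adjusted p = 8.48e-11).

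Interferon-stimulated genes, which carry out the antiviral response downstream of interferon receptors, moved both ways. Of 44 tested, 14 were higher and 6 lower (45.45% called, against 5.16% of all tested genes), and the median log2 fold change was 0.20. IFI44L had 183 and 182 CPM in CT2 and U2, against 124 and 114 CPM in CT1 and U1 (log2 0.62 ± 0.08 SE, adjusted p = 3.31e-12). The other genes that were higher, in part named after their values were seen, include the transcription factors STAT2 (0.36) and IRF7 (0.42), the antiviral GTPase MX1 (0.40), the RNA sensors OAS1 (0.38), OAS2 (0.37) and EIF2AK2 (0.45), and PARP14 (0.46). IFI27 had 235 CPM in CT2 and 361 CPM in U2, against 329.9 CPM in CT1 and 586 CPM in U1 (log2 -0.59 ± 0.07 SE, adjusted p = 1.26e-15). For IFI27 U2 lies above CT1, so the groups overlap and the difference is seen only within a label. IFIT2 (-0.63), IFITM1 (-1.67), ISG20 (-0.46), HERC5 (-0.40) and OASL (-0.35) were also lower. The groups overlap in ISG20 and OASL too, and, among the genes that were higher, in OAS1 and IFI35 (0.25). IFIT1 (-0.01, adjusted p = 0.989) and ISG15 (-0.02, adjusted p = 0.89) did not pass. Exons of IFIT2, IFITM1, PARP9 and EIF2AK2 overlap those of a neighbour. In the fit of 8 libraries 0 of the 44 were called.

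The element that binds interferon-activated factors was searched as the letters TTTCNNTTTC on both strands of the 250 bases before the start. It was found for 23 of 34 interferon-stimulated genes with a promoter in the table, against 3.02% of all promoters, and for 5 of the 10 called higher and 4 of the 4 called lower with a promoter there. Here too genes were matched by any of their starts, while the 3.02% counts single promoters. A promoter of each direction is shown, both from the plus strand of GRCh38.p14 (RefSeq), with the matches in capitals: IFI44L, which was higher, at chr1:78620198-78620447 and IFI27, which was lower, at chr14:94110486-94110735.
IFI44L: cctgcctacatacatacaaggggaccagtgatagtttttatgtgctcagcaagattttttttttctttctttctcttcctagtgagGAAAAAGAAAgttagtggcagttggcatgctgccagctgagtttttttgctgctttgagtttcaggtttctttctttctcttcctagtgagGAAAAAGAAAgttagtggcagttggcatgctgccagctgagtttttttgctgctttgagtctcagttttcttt
IFI27: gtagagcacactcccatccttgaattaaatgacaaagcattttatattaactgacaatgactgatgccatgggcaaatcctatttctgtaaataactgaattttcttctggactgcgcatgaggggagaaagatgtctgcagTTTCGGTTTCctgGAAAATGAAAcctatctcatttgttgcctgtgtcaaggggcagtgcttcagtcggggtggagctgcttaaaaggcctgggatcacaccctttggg
Both windows hold 2 matches.

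**Figure D4:**
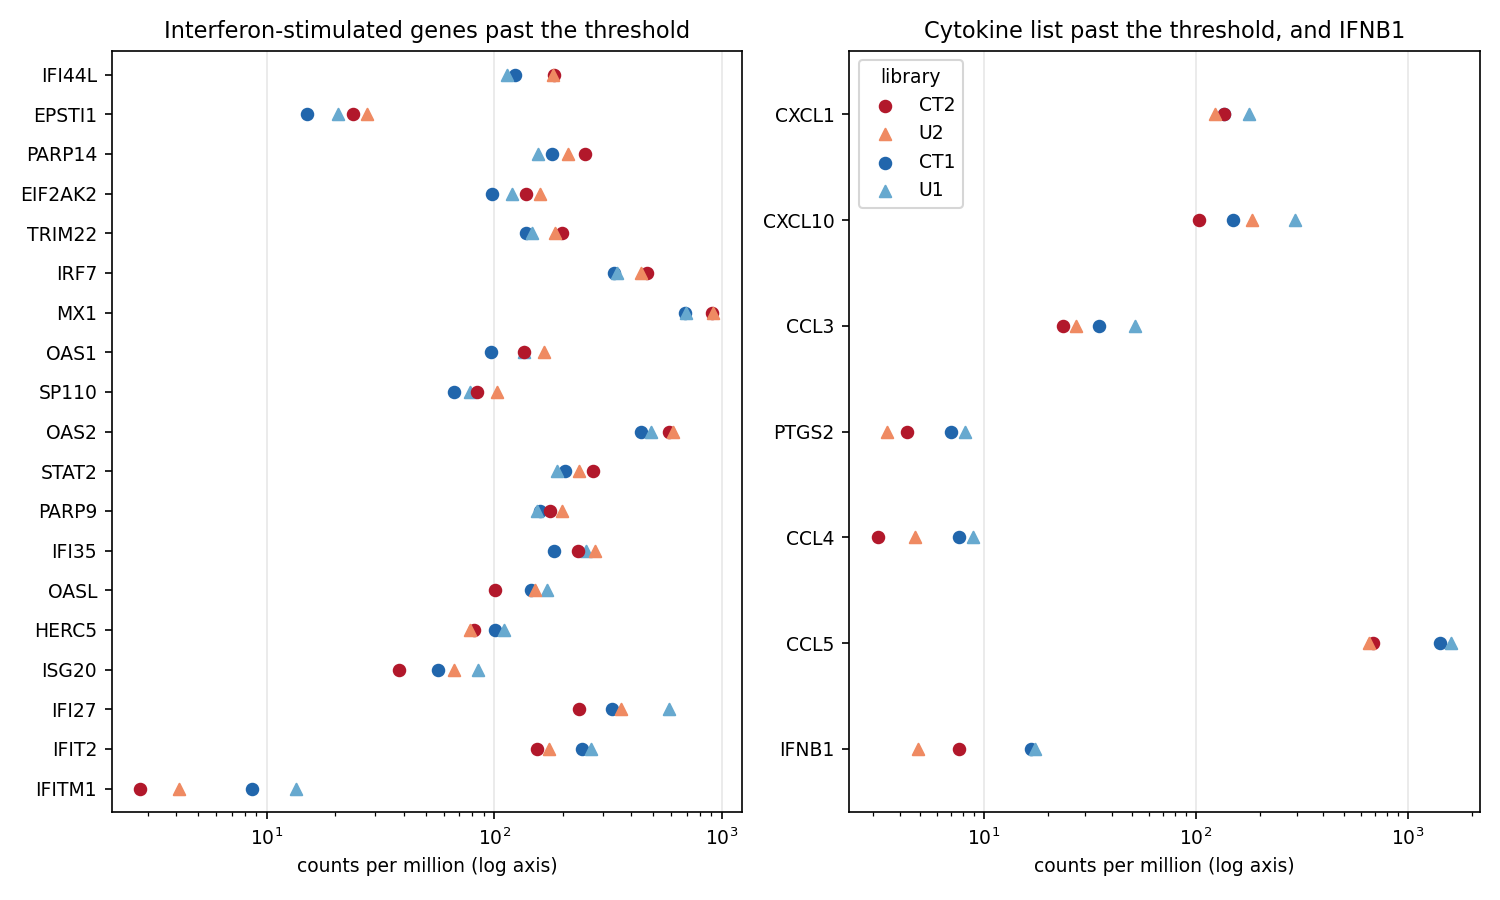
Level of 19 of the 20 called interferon-stimulated genes (left) and of the 6 called cytokine genes with IFNB1 (right) in each input RNA library, in CPM on log axes; circles are CT libraries, triangles U libraries, red number 2 and blue number 1. CCL5 is at 659 and 683 CPM in U2 and CT2, against 1424 and 1602 CPM in CT1 and U1, while IFI44L has both red points right of both blue points.

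Antigen presentation genes that passed the test were higher by small amounts. Of 17 tested genes of MHC class I and peptide loading, 8 were higher and 0 lower, and log2 fold changes ran from -0.07 to 0.30 around a median of 0.23. The share called was 47.1%, against 5.16% of all tested genes. TAPBP, the tapasin chaperone, had 517 and 596 CPM in CT2 and U2, against 488 and 461 CPM in CT1 and U1 (log2 0.23 ± 0.06 SE, adjusted p = 0.0132). HLA-B (0.27) and the immunoproteasome subunit PSMB9 (0.25) were higher too, but their exons overlap those of other genes and HLA genes share reads. In PSMB9 CT2 lies below U1, so the groups overlap. DESeq2 called 1 of the 17.

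Of 41 tested monocyte and macrophage differentiation genes, 10 were higher and 1 lower, and their median log2 fold change was 0.17. The share called was 26.8%, against 5.16% of all tested genes. DESeq2 called 7 higher and 0 lower. S100A9, a subunit of the calcium-binding protein calprotectin, had 115 CPM in CT2 and 231 CPM in U2, against 65.7 CPM in CT1 and 115 CPM in U1 (log2 0.91 ± 0.08 SE, adjusted p = 3.07e-25). S100A8, its partner, had 501 and 844 CPM in CT2 and U2, against 290.1 and 443 CPM in CT1 and U1 (log2 0.86 ± 0.07 SE, adjusted p = 8.56e-37). SIGLEC1, a sialic acid receptor of macrophages, had 696 and 702 CPM in CT2 and U2, against 512 and 476 CPM in CT1 and U1 (log2 0.50 ± 0.06 SE, adjusted p = 6.07e-13). KLF4 (-0.67), a transcription factor of monocytes, was lower, and CD14 (-0.02, adjusted p = 0.986), the endotoxin co-receptor, did not pass. Among myeloid transcription factors CEBPA (0.39) and LMO2 (0.33) were higher with KLF4 lower, of 20 tested (15% called). Lysosome genes followed with 7 of 32 higher and 2 lower (28.1% called, DESeq2 4 and 0), led by GRN (0.64), the progranulin gene, PSAP (0.41) and GAA (0.40). In bulk RNA, more cells of a type and more RNA per cell cannot be told apart.

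Cell cycle genes that passed the test were all lower, most by small amounts. Of 44 tested mitosis genes, 0 were higher and 9 lower, the median log2 fold change was -0.20, and 34 were below 0 in both pairs, where 29.7% of all tested genes were. The share called was 20.45%, against 5.16% of all tested genes. DESeq2 called 3 of the 44. MAD2L1, of the spindle checkpoint, had 49.8 and 34.4 CPM in CT2 and U2, against 93.1 and 69.1 CPM in CT1 and U1 (log2 -0.96 ± 0.10 SE, adjusted p = 2.79e-17). ANLN (-0.51), which organises the cleavage furrow, and KIF11 (-0.44), the motor that separates spindle poles, were lower, as were PLK1 (-0.25) and CDC20 (-0.27). Of 51 genes of DNA replication and the G1/S transition, 0 were higher and 5 lower (median -0.13), a share of 9.80% against the 5.16%. Those that fell were RRM2 (-0.44), a subunit of ribonucleotide reductase, CDC25A (-0.35), the helicase subunits MCM3 (-0.31) and MCM4 (-0.31), and FEN1 (-0.24), whose exons overlap a neighbour's. In CDC25A CT2 (118 CPM) lies above U1 (109 CPM), so the groups overlap. Of 30 replication-dependent histone genes tested, none passed with edgeR or DESeq2 (0 at an unadjusted p under 0.05). Together these 30 genes summed to only 91.2 to 108 CPM per library, with log2 fold changes from -2.91 to 2.12. At such low levels the test could miss changes, so this does not show that they stayed level.

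Chaperone genes that passed the test were lower as well. Of 19 heat shock genes, 0 were higher and 9 lower, with a median log2 fold change of -0.20. The share called was 47.4%, against 5.16% of all tested genes, and DESeq2 called 6 lower. HSP90AA1, the inducible cytosolic HSP90, had 1481 and 1371 CPM in CT2 and U2, against 1939 and 1737 CPM in CT1 and U1 (log2 -0.37 ± 0.05 SE, adjusted p = 1.3e-09). HSPA8 (-0.35) and HSPA1B (-0.71) were lower; HSPA1B shares reads with its near-identical copy HSPA1A (-0.34). Of 22 genes of the unfolded protein response of the endoplasmic reticulum, 0 were higher and 5 lower (22.7% called, 3 lower with DESeq2). XBP1, its transcription factor, had 152 and 102 CPM in CT2 and U2, against 223 and 195 CPM in CT1 and U1 (log2 -0.75 ± 0.08 SE, adjusted p = 1.2e-18), and HSPA5 (-0.35) and PDIA4 (-0.33) also fell. In HSPA5 CT2 (450 CPM) lies above U1 (396 CPM), so the groups overlap. Of 35 ATF4 and integrated stress response genes, 2 were higher and 5 lower (20% called). DESeq2 called 1 higher and 4 lower. ATF4 (-0.22), PHGDH (-0.64), GARS1 (-0.30), MTHFD2 (-0.32) and PPP1R15A (-0.31) fell, while PCK2 (0.54) and SESN2, also a p53 target, were higher.

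Ribosome assembly factors that passed the test were lower by small amounts. Of 61 tested processing factors of the large subunit 0 were higher and 6 lower (median log2 -0.10), and of 58 of the small subunit 0 were higher and 3 lower (median -0.10). The share called was 9.84% for the large subunit and 5.17% for the small subunit, the second close to the 5.16% of all tested genes, and DESeq2 called 2 and 0. NOB1, the nuclease that makes the end of 18S rRNA, had 53.4 and 46.6 CPM in CT2 and U2, against 67.8 and 62.9 CPM in CT1 and U1 (log2 -0.39 ± 0.11 SE, adjusted p = 0.00862). NPM1, the abundant nucleolar scaffold protein that is mutated in this line, had 1271 and 1241 CPM in CT2 and U2, against 1510 and 1414 CPM in CT1 and U1 (log2 -0.22 ± 0.05 SE, adjusted p = 0.00263), and its relative NPM3 (-0.36) fell too. Among RNA polymerase I subunits and factors none of 21 passed with edgeR or DESeq2 (0 at an unadjusted p under 0.05). With 5.16% of all tested genes called, a list this short would hold few calls or none, so 0 does not set it apart. Of 79 ribosomal protein genes tested, 5 were higher and 0 lower: RPL37A (0.20), RPL23 (0.18), RPS12 (0.22), RPS19 (0.16) and RPS29 (0.44), whose exons overlap a neighbour's. That is 6.33% of them, close to the 5.16% of all tested genes, and DESeq2 called 3. In RPL37A, RPL23, RPS12 and RPS29 CT2 lies below U1, so the groups overlap. Among 45 MYC targets 0 were higher and 5 lower (11.1% called, 4 lower with DESeq2), led by TFRC (-0.64), the transferrin receptor. The 5 include NOP56 and the large-subunit factor MRTO4, which are also called members of lists above, so the counts are not separate results. MYC itself had a log2 fold change of 0.12 (adjusted p = 0.639).

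**Figure D5:**
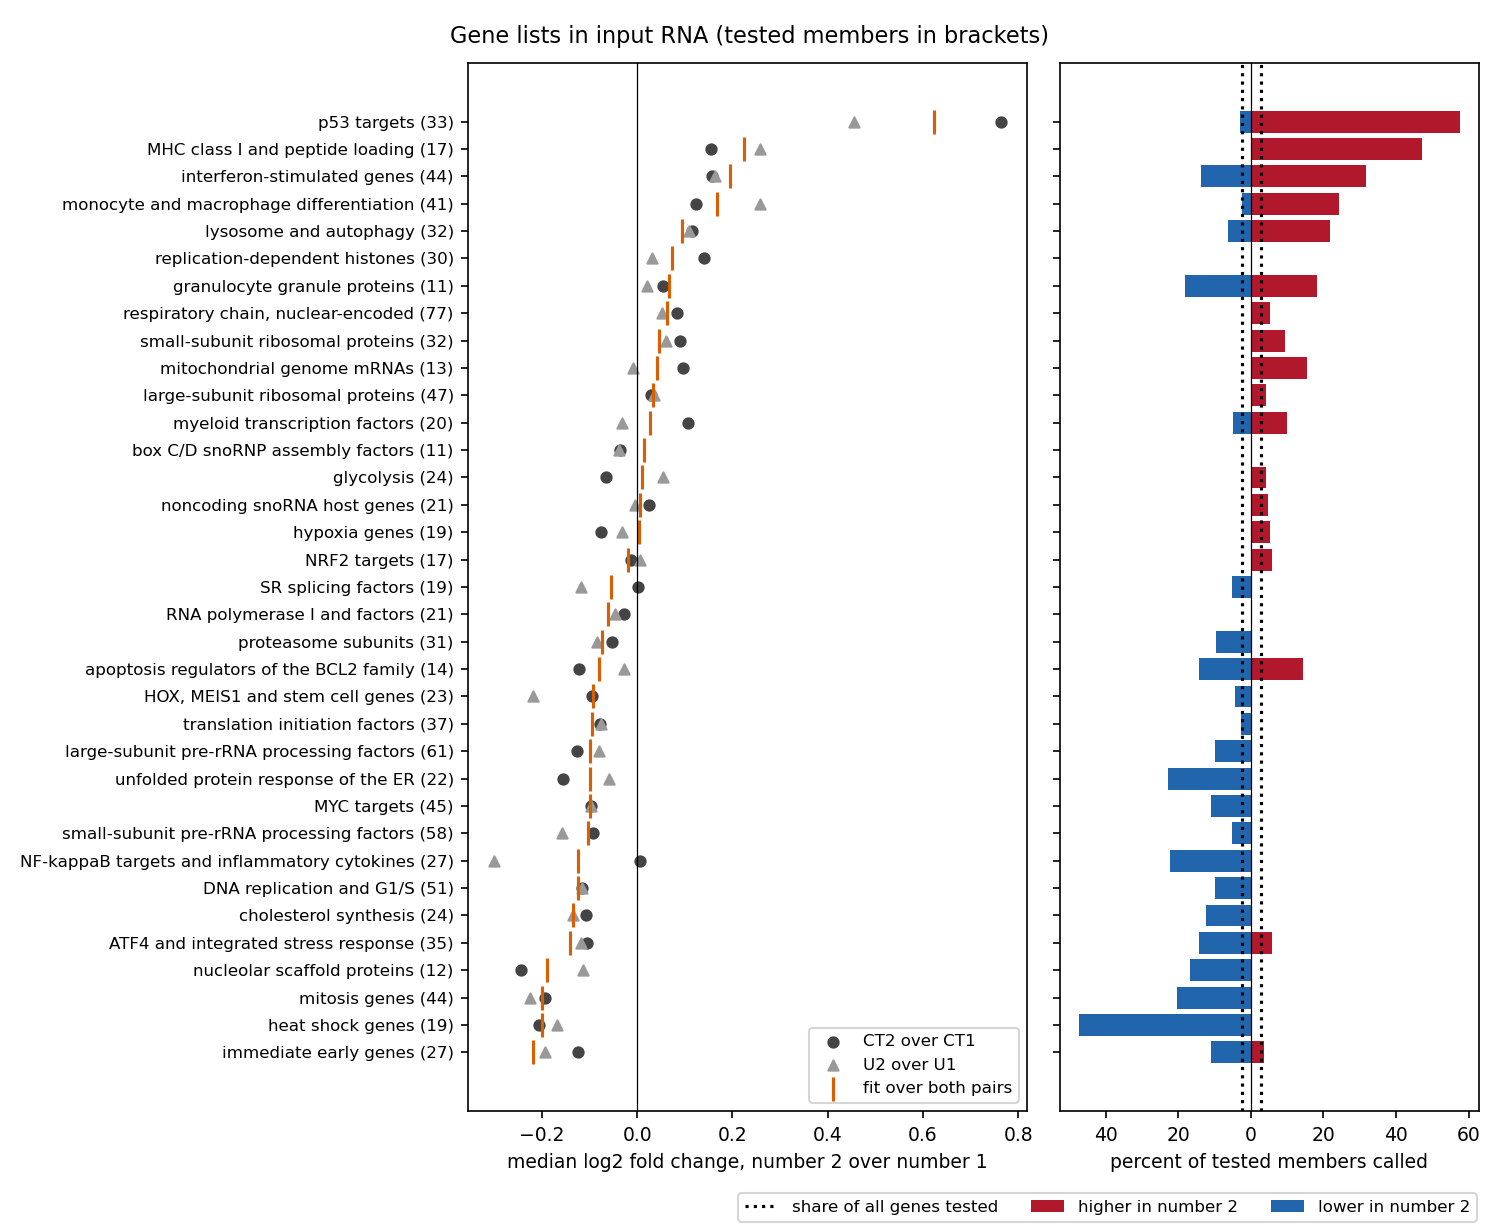
Gene lists with at least 10 tested members, input RNA. The left panel gives each list's median log2 fold change, number 2 over number 1, for CT2 over CT1, U2 over U1 and the fit over both; the right panel gives the percent of tested members called higher (red) or lower (blue), with the shares over all genes tested, 2.67% and 2.49%, as dotted lines. The p53 targets stand at 0.62 with 19 of 33 called higher, and the heat shock genes at -0.20 with 9 of 19 called lower.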

How the data were processed

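Each deposited file gives the raw counts of 1 library by gene, which the authors made with Trimmomatic 0.38, Bowtie2 and HTSeq 0.11.2 on GRCh38, per the submitters' processing notes; the annotation release, strand setting and other versions are in no source used here. Each file lists 58395 genes, of which 58275 are in GENCODE 29, which gave positions and exon overlaps. Lines that name no gene held 14.2% to 14.9% of reads in input libraries and stayed out of library sizes and tests. Bowtie2 aligns without introns, so junction reads may be lost or land on processed pseudogenes.

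The 4 input libraries were fitted with edgeR 4.0.16 (R 4.3.3): filterByExpr, TMM, quasi-likelihood F test, title number with the CT or U label as a block, Benjamini-Hochberg adjustment over all 15543 genes and a threshold of 0.05. The label pairs libraries by title, not by a stated culture. CPM uses TMM library sizes; pair ratios carry a prior count of 0.5. The fit was tested on simulated data drawn with the trended spread, so that check does not cover genes that vary more than the trend. Alternatives used DESeq2 1.42.0, limma 3.58.1, other scalings and filters, no block, GC and length offsets, and all 8 libraries, in which each input library was also left out. Libraries of a number differed by a chi-square of 32.1 (number 2) and 25.1 (number 1) per degree of freedom, more than sampling noise.

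Named genes are FBL and its core partners; the 10 largest increases and 10 largest decreases among called genes with the same sign in both pairs, 10 CPM or more on average in the higher number and no exon overlap with a gene of comparable reads; up to 3 called members per list by p; all other genes named, such as MYC, CD14 or PLK1, were chosen after their values were seen. The members, the 41 gene lists and the split were chosen with earlier results of these data known. A few genes are not reported here. Figures used matplotlib 3.10.9.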

Additional observations from a re-analysis of the deposited data

Results flagged for a closer look

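In 3 called genes the CT pair and the U pair went opposite ways, and the difference between pairs was not tested. SLX1B had 1.25 CPM in CT2 and 1.10 CPM in U2, against 14.7 CPM in CT1 and 0.62 CPM in U1, so its pair ratios differ by -4.36 on the log2 scale (CT minus U) and CT1 alone is high. UBXN4 had 48.5 CPM in CT2 and 28.6 CPM in U2, against 45.6 CPM in CT1 and 52.9 CPM in U1, a difference between pairs of 0.97, with U2 alone low. CXCL1 had 136 CPM in CT2 and 123 CPM in U2, against 136 CPM in CT1 and 178 CPM in U1, a difference between pairs of 0.53. All 3 are below the threshold of adjusted p in the fit of the 4 input libraries, at 0.00212 for SLX1B, 0.0276 for UBXN4 and 0.0281 for CXCL1. The median of the MHC class II list also had opposite signs, 0.85 in the CT pair and -0.48 in the U pair, a difference of 1.33. It rests on 3 tested genes, of which HLA-DMA and CIITA are at 1.09 to 2.42 CPM in all libraries, while CD74, the invariant chain, had log2 ratios of 0.29 and 0.36 in the CT pair and the U pair.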

How the results depend on the processing

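The count of 802 called genes fell to 329 with DESeq2, 434 with GC and length offsets beside the replicate block, 7 without the replicate block, 4 in the fit of all 8 libraries (FBL among them), 43 in that fit restricted to genes averaging 10 CPM or more (added after seeing the data) and 6 to 11 when 1 input library was left out of the fit of 8. Other scalings, other filters, limma-voom, edgeR's robust fit and its legacy form gave within 1.5 times the count. Part of the loss comes with the construction: the fit of 8 lets each gene have its own spread, and without the block differences between CT and U libraries count as spread. For the rest the cause was not tested. None of the 175 genes followed changed sign under any setting. Every setting draws on the same input libraries, and leaving 1 out leaves a single input pair. Nearly all called genes had the same sign in both pairs, so the constant sign was largely fixed in advance and is no separate evidence. DESeq2 put 107 of them on the same side of the threshold, the offsets 121, no block 8 and the fit of 8 libraries 5. List medians moved by at most 0.02 with the other scalings and by up to 0.28 with the other filters. The cytokine list's median of -0.12 went to 0.00 without U1 or U2, which leaves the CT pair in input RNA. It went to -0.32 without CT1 or CT2. Leaving out an input library moved a list's median by up to 0.70 and changed the sign in 3 to 5 of 41 lists. These shifts include MHC class II (3 genes tested; 0.17, against -0.25 to 0.87) and lymphoid markers (7 tested; -0.33, against -0.83 to 0.02). With 2 libraries for each number the spread between libraries limits precision, and for genes near 1 CPM counting error does too.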

Other observations

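Of 77 nuclear-encoded respiratory chain genes, 4 were higher and 0 lower, NDUFS8 (log2 0.30) among them. That is a share of 5.19% against 5.16% of all tested genes (DESeq2 called 1). Of 13 mitochondrial mRNAs 2 were higher (15.4% called), MT-CO1 (0.23) and MT-ATP8 (0.47), MT-ATP8 sharing bases with MT-ATP6. Of 24 cholesterol synthesis genes 3 were lower (12.5% called), TM7SF2 (-0.62), IDI1 (-0.46) and INSIG1 (-0.33). In INSIG1 CT2 lies above U1, so the groups overlap. Of 31 proteasome subunits 3 were lower (9.68% called, 0 with DESeq2), PSMC4, PSMD1 and PSMD11, at -0.28 to -0.27. The hypoxia-responsive gene NDRG1 (0.43) and the hexokinase gene HK3 (0.83) were the called members of their lists (5.26% and 4.17% called). In NDRG1 CT2 (391 CPM) lies below U1 (448 CPM), so the groups overlap. Among 7 nuclear-retained noncoding RNAs, with a median log2 of 0.35, 2 were higher (28.6% called, 0 with DESeq2). NEAT1, the scaffold of paraspeckles, had 710 and 559 CPM in CT2 and U2, against 491 and 494.5 CPM in CT1 and U1 (log2 0.35, adjusted p = 3.12e-06), and PVT1 (0.39) was also higher. Of 27 immediate early genes 1 was higher, IER5 (0.82), and 3 were lower, JUNB (-0.23) among them (14.8% called, DESeq2 1 higher and 0 lower). In JUNB CT2 lies above U1, so the groups overlap. The list's median log2 was -0.22, but -0.08 over genes averaging 10 CPM or more and -0.10 without the block or with limma-voom.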
